A study of Mus musculus with 7 samples.

Results

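Semaphorins, plexins, ephrins, Eph receptors, netrins and Unc5 receptors, the families that guide growing axons and vessels and position epithelial cells, were followed in sorted cells of benign and malignant skin tumours of mice. The genes were chosen by their symbols alone, and a gene with several probe sets of its own symbol alone was followed on the one that was brightest on average. This gave 58 of the 18193 genes on the arrays, 20 semaphorins, 9 plexins, 13 Eph receptors, 8 ephrins, and 8 netrins and Unc5 receptors. Of the genes whose symbol follows the rule, Ephb2 was not analysed here.

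The cells had been sorted for Cd34 and Epcam from tumours raised with DMBA, a mutagen, and TPA, a tumour promoter. Carcinomas gave 4 arrays, numbered 1, 2 and 3 and tagged GFP, and papillomas gave 3 arrays, numbered 1 and 2 and tagged GFP. The descriptions of all 7 samples place Nr2f2 before the tumour type. Strain, age, any allele and the meaning of the GFP tag are not given in the labels, and they do not say that each array is a different animal; the p-values therefore speak of the spread among these arrays alone. Levels are log2 values of RMA, the normalization the authors applied, and 1 log2 unit is a doubling. With so few arrays each value has limited precision, and fewer cells of a type and less RNA per cell cannot be told apart in such samples.

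Semaphorins are secreted or membrane-bound ligands, and plexins are their receptors, which act on small GTPases and on the cytoskeleton; secreted class 3 semaphorins mostly need a neuropilin as co-receptor. Ephrins and Eph receptors both sit in the membrane, so that signalling needs contact between cells and can run in both directions. A-type ephrins are held by a lipid anchor and B-type ephrins span the membrane. Netrins are secreted, laminin-like proteins that repel cells through Unc5 receptors and attract them through Dcc. In skin, Epha2 and its ligand Efna1 are known from keratinocytes, whereas Efnb2, Plxnd1 and Unc5b are known from the endothelium of vessels.

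Markers of several cell types differed with the tag. Endothelial markers averaged between 5.41 and 5.84 in the 5 untagged arrays and between 10.76 and 10.77 in the tagged arrays (16 of 16 genes higher by the test below). Fibroblast markers averaged 5.65 to 7.14 and 9.37 to 10.48 (10 of 12 genes higher), and pericyte markers 5.81 to 7.05 and 9.02 to 9.55 (5 of 8 higher). Myeloid markers averaged 5.16 to 6.37 and 7.10 to 7.37 (5 of 10 higher), lymphoid markers 4.56 to 4.83 and 5.004 to 5.57 (2 of 6 higher), and melanocyte markers 4.82 to 5.78 and 6.02 to 6.22 (2 of 6 higher). Schwann and neural markers averaged 6.85 to 7.23 and 6.36 to 6.73 (2 of 6 lower, Erbb3 and Ngfr). Of the others, Sox10 and Foxd3 differed by 0.25 and 0.43 and Mbp and S100b by -0.72 and -0.23, none of them called. Keratinocyte markers were bright in all 7 arrays, at 11.46 to 12.17 and 10.45 to 10.55 (8 of 12 lower). Epcam, 1 of the markers sorted for, lay between 10.52 and 11.97 in the untagged arrays and at 9.59 and 8.28 in carcinoma GFP and papilloma GFP. On the Gapdh control, a measure of RNA integrity, the 3' minus 5' signal lay between -0.04 and 0.06 in the untagged arrays and at 3.19 in both tagged arrays. These differences go with the tag in all 7 arrays, so the fits below cannot separate them from it. Their part in the results below was not tested.

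**Figure D1:**
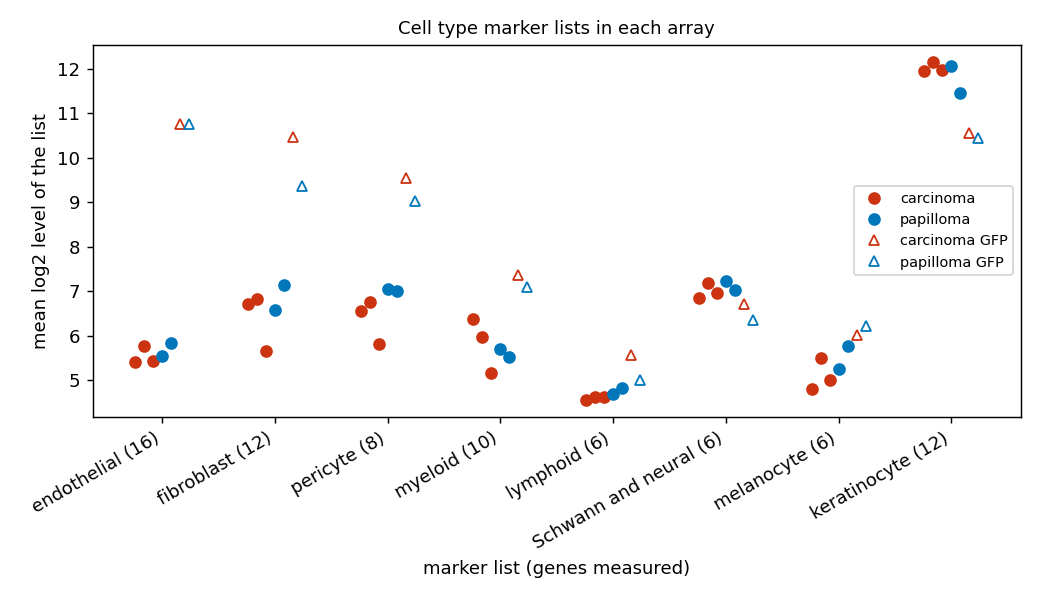
Mean log2 level (vertical axis) of 8 lists of cell type markers (horizontal axis, with the number of genes measured) in each array. Circles are untagged and open triangles are GFP-tagged arrays, red for carcinoma and blue for papilloma; the endothelial list lies between 10.76 and 10.77 in the tagged arrays and at 5.84 or below in the others.

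Many guidance genes differed with the tag, and 0 were called between the tumour types. In a limma fit of both, 24 of the 58 genes differed with the tag at an adjusted p below 0.05 (Benjamini-Hochberg over all 18193 genes). Of these, 14 were higher in the tagged arrays, led by Plxnd1, Sema3g and Sema7a, and 10 were lower, led by Efna4, Epha1 and Epha2. Those are 24.1% and 17.2% of the guidance genes, where 11.9% of all genes were called higher and 7.93% lower. The counts by family below, each of few genes, stand against these shares of all genes. All 24 moved in the same direction in carcinoma and in papilloma, and in none did the tagged and untagged arrays overlap. Over the 58 genes the tagged arrays lay above all untagged arrays in 18 and below them in 14, which is 31% and 24.1%, against 21% and 19.9% of all genes. The median tag difference was 0.06 for the guidance genes and -0.05 for all genes.

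Between carcinoma and papilloma 0 of 58 genes were called higher and 0 lower (limma), where 0% of all genes were called in either direction. At an unadjusted p under 0.05 there was 1 guidance gene, Efna1, and 331 of all genes. On the probe sets used, the difference of every guidance gene was under 1 log2 unit, and 52 of 58 were under 0.5. Of all 18193 genes, 195 differed by more than 1 unit. Dimmer probe sets of Epha7, Epha3 and Sema3b gave 2.18, 1.61 and 1.07, through high values in few arrays. That of Epha7 read 9.41 in carcinoma 1 and 3.23 to 6.15 elsewhere. That of Epha3 read 7.81 in carcinoma GFP and 2.92 to 4.945 elsewhere. That of Sema3b read 6.69 and 7.36 in carcinomas 1 and GFP, 4.59 and 4.69 in carcinomas 2 and 3, and 4.43, 4.75 and 5.495 in papillomas 1, 2 and GFP. The tumour types overlapped in all 58; over all genes, carcinoma lay entirely above papilloma in 0.506% and entirely below it in 0.912%. The median difference was 0.02 for the guidance genes and -0.01 for all genes. In data drawn with 200 genes changed by 1 log2 unit between the tumour types, 0 of the 200 were called. The 0 calls here therefore do not show that the tumour types are alike.

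**Figure D2:**
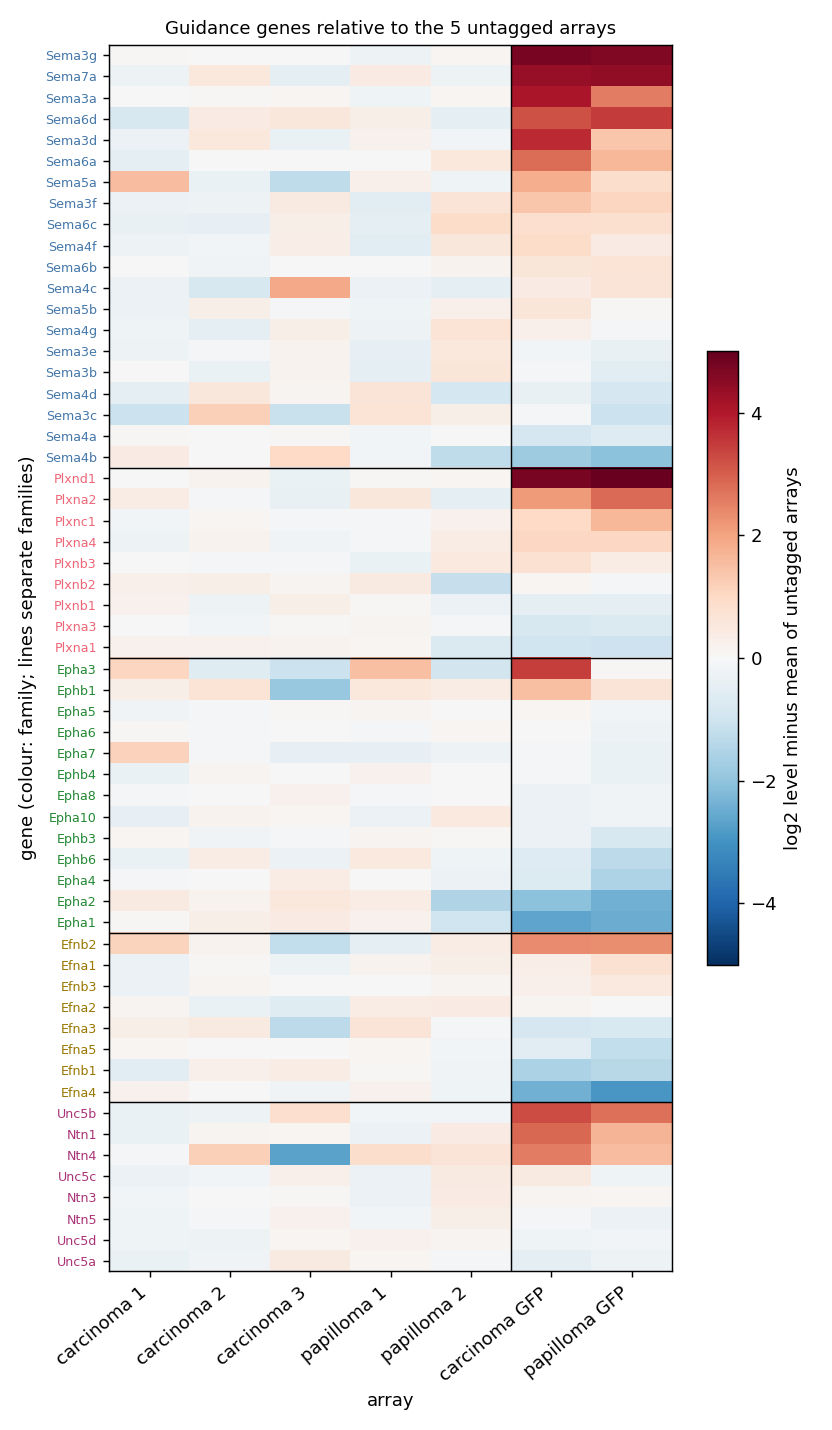
Level of each of the 58 genes (rows, ordered within family by the tag difference) in each of the 7 arrays (columns), as log2 units above (red) or below (blue) its mean in the 5 untagged arrays. The strong colours lie in the columns of the tagged arrays, right of the vertical line, whereas the untagged carcinoma and papilloma columns are pale for most genes.

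Promoters are shown for the 2 genes most raised and the 2 most lowered in the tagged arrays, because these have the most extreme tag differences. Sequences are from RefSeq (GRCm38.p6), which held promoters for 50 of the 58 genes, and run 5′ to 3′ from 250 bases before to 50 bases after the transcription start. Plxnd1 is at chr6:115994956-115995255 on the minus strand, Sema3g at chr14:31217623-31217922 on the plus strand, Efna4 at chr3:89337979-89338278 on the minus strand and Epha1 at chr6:42373219-42373518 on the minus strand. Capitals mark the GC box GGGCGG on either strand, the element bound by Sp1 and related factors.
Plxnd1: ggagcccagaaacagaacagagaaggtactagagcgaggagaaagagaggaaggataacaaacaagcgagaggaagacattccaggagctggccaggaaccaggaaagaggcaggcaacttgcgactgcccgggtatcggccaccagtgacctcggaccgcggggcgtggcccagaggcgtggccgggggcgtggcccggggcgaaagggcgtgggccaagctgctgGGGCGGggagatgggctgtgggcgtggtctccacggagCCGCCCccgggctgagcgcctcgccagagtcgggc
Sema3g: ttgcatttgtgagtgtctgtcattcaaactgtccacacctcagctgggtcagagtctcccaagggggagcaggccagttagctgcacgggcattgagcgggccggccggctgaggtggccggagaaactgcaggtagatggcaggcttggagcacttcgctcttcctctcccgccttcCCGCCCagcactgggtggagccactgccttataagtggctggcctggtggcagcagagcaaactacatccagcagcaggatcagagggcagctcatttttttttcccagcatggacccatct
Efna4: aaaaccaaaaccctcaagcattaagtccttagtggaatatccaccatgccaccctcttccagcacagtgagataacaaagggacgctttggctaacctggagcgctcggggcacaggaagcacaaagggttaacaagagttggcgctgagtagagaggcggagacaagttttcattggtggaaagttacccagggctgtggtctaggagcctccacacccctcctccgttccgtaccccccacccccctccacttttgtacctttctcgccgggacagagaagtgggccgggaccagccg
Epha1: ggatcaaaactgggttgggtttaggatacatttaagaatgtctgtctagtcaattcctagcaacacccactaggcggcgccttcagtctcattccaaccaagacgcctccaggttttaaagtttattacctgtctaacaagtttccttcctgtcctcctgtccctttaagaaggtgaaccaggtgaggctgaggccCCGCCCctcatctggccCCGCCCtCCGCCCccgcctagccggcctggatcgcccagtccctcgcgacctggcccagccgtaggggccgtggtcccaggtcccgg
The box begins at -23 and 16 from the start in Plxnd1, at -72 in Sema3g and at -54, -37 and -30 in Epha1, and the Efna4 window holds none. It occurred in 75% of the 64 promoters of guidance genes, in 10 of 13 promoters of 11 raised genes and in 10 of 13 promoters of 9 lowered genes, against 52.3% of the 18109 promoters of all genes tested and 35.7% of all 32851 promoters. Further motifs were searched on both strands, and 0 of these 4 promoters held one. The ETS motif CGGAAG was in 9.38% of guidance promoters, 23.7% of those of the genes tested and 16.9% of all. The AP-1 motif TGANTCA, through which TPA acts, was in 4.69%, 6.38% and 7.81%, and the TATA box TATAAA in 1.56%, 9.77% and 13.6%. Median GC content was 64.3% in guidance promoters, 58.3% in those of the genes tested and 52.7% in all. The part of base composition in these motif shares was not tested. In the 4 sequences shown the matches did not overlap. All matches describe the scanned windows only.

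Among the secreted class 3 semaphorins, 3 of 7 were higher in the tagged arrays. Sema3g, a ligand made by endothelial cells, read 9.38 in carcinoma GFP, 9.29 in papilloma GFP, and 4.73, 4.68 and 4.69 in carcinomas 1 to 3 and 4.41 and 4.76 in papillomas 1 and 2. Both tagged arrays stood far above all others, by 4.69 log2 units (SE 0.17, limma adjusted p = 2.79e-05), with 4.68 in carcinoma and 4.71 in papilloma. The untagged values lay below the array medians, and with no detection calls at hand it is not known how far such dim levels stood above background, so no fold is given. Sema3a, the classical repellent of growth cones, read 8.66 in carcinoma GFP, 7.17 in papilloma GFP, and 4.58, 4.65 and 4.68 in carcinomas 1 to 3 and 4.37 and 4.68 in papillomas 1 and 2. It differed by 3.37 (SE 0.31, limma adjusted p = 0.000733), and the tagged carcinoma array exceeded the tagged papilloma array by 1.49. Sema3d had 7.43 and 5.13 in carcinoma GFP and papilloma GFP and 3.37 to 4.25 in the others, a difference of 2.62 (SE 0.54, limma adjusted p = 0.0169) that fell to 1.36 without carcinoma GFP (adjusted p = 0.185). Sema3f was 1.23 higher (SE 0.37, limma adjusted p = 0.0609), and Sema3b, Sema3c and Sema3e differed by -0.31, -0.62 and -0.26, short of the threshold. The sign of Sema3b depended on the probe set, since its other 2 gave 1.16 and 1.504. With the mean of a gene's probe sets Sema3a differed by 2.25 and was still called (limma adjusted p = 0.0052).

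Of the 13 semaphorins outside class 3, 4 were higher and 2 lower in the tagged arrays. In class 4, Sema4b and Sema4a were lower in the tagged arrays, with differences of -1.82 (SE 0.41) and -0.74 log2 units (limma adjusted p = 0.0238 and 0.0209). Sema4b read 7.61 in carcinoma GFP, 7.36 in papilloma GFP, and 9.81, 9.41 and 10.38 in carcinomas 1 to 3 and 9.27 and 8.13 in papillomas 1 and 2. The tagged arrays were the lowest, and papilloma 2 was the lowest of the others. Sema4c, Sema4d, Sema4f and Sema4g differed by 0.57, -0.57, 0.68 and 0.08 and were not called. The dimmer probe set of Sema4f had 7.85 and 7.32 in carcinoma GFP and papilloma GFP against 3.83 to 4.16 in the others, a difference of 3.63 that the one used did not show. In class 6, Sema6d (3.35, SE 0.43), Sema6a (2.24, SE 0.38) and Sema6b (0.62, SE 0.16) were higher with limma adjusted p of 0.00268, 0.00799 and 0.0362, and Sema6c (0.81) was not called. The calls of Sema4a, Sema4b, Sema6a and Sema6b ended without carcinoma GFP (limma adjusted p = 0.301, 0.311, 0.109 and 0.307), where Sema6a differed by 1.41, and those of Sema4a and Sema4b also without papilloma GFP (0.0854 and 0.0723) or carcinoma 1 (0.05 and 0.0529), and that of Sema4a without carcinoma 2 (0.0572). With a trended, robust prior Sema4a and Sema6b were not called (limma adjusted p = 0.0666 and 0.143), nor was Sema6b among genes above the median level (0.057). With the mean of their probe sets Sema6d and Sema6a were called at 1.95 and 1.14. When arrays were left out singly, Sema6b was called only without papilloma 2. In class 5, Sema5a and Sema5b differed by 1.37 and 0.35 and were not called.

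Sema7a, the lipid-anchored semaphorin that binds integrins and Plxnc1, read 10.84 in carcinoma GFP, 10.91 in papilloma GFP, and 6.23, 7.005 and 6.03 in carcinomas 1 to 3 and 6.89 and 6.22 in papillomas 1 and 2. The tagged arrays exceeded the others by 4.39 log2 units (SE 0.32, limma adjusted p = 0.000282). Its dimmer second probe set gave 0.82, and the mean of both gave 2.60, which was called as well (limma adjusted p = 0.000228). Its receptor Plxnc1 was higher by 1.30 (SE 0.21, limma adjusted p = 0.00622) from a dim level, with 5.39 and 6.09 in carcinoma GFP and papilloma GFP against 4.28 to 4.62. The Plxnc1 value depended on the choice among its 6 probe sets, since the mean of all of them differed by 0.38 (limma adjusted p = 0.15), and it ended without papilloma GFP (0.081).

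Of the plexins, 4 of 9 were higher and 2 lower in the tagged arrays. Plxnd1, the receptor of Sema3e that restrains vessel sprouting, read 10.22 in carcinoma GFP, 10.42 in papilloma GFP, and 5.47, 5.67 and 5.17 in carcinomas 1 to 3 and 5.55 and 5.58 in papillomas 1 and 2. It differed by 4.82 log2 units (SE 0.19, limma adjusted p = 3.47e-05), within the errors of the 4.69 of Sema3g, while its ligand Sema3e was dim in every array, at 4.39 to 5.33. Plxna2 had 9.31 and 10.02 in carcinoma GFP and papilloma GFP against 6.70 to 7.73, a difference of 2.46 (SE 0.35, limma adjusted p = 0.00415), and its other 3 probe sets gave 1.15 to 3.05. Its call ended without papilloma GFP (2.15, adjusted p = 0.0579). Plxna4 was higher by 1.02 (SE 0.22), and Plxna1 and Plxna3 were lower, at -0.97 (SE 0.25) and -0.78 (SE 0.16), with limma adjusted p of 0.0192, 0.0404 and 0.0177; each of these calls ended without either tagged array, and when arrays were left out singly Plxna1 was called only without papilloma 2. With the mean of their probe sets Plxna1 and Plxna3 were not called (-0.53 and -0.68, limma adjusted p = 0.0546 and 0.0544), and with a trended, robust prior they had 0.05 and 0.0747. The B plexins, receptors of class 4 semaphorins, were not called: Plxnb1, Plxnb2 and Plxnb3 differed by -0.43, 0.04 and 0.57.

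**Figure D3:**
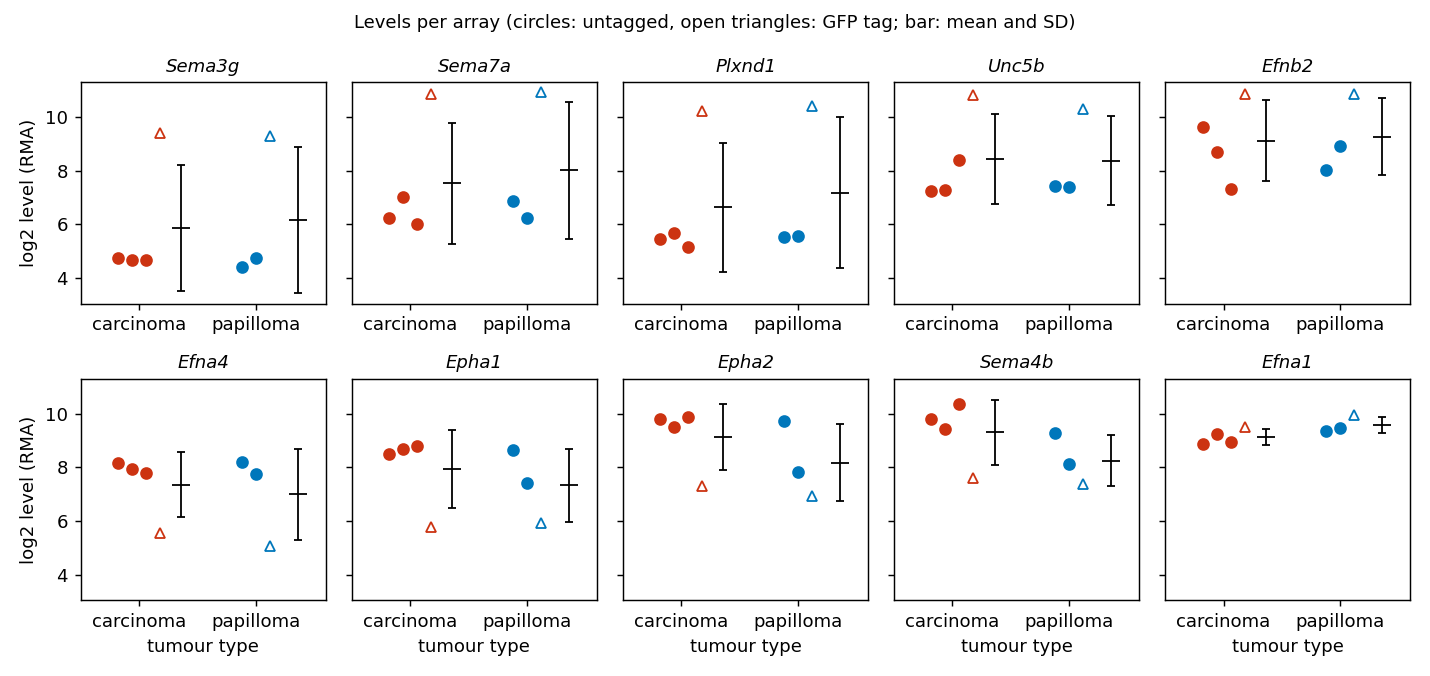
Log2 level (vertical axis, RMA) of 10 genes in each array by tumour type (horizontal axis). Filled circles are untagged arrays, open triangles GFP-tagged arrays, and the black bar is the mean and SD over all arrays of the tumour type; Sema3g, Sema7a, Plxnd1 and Unc5b stand high in both tagged arrays and Efna4 and Epha1 low.

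No Eph receptor was called higher in the tagged arrays, where 11.9% of all genes were. Of the 13 receptors 3 were lower, where 7.93% of all genes were. These 3 were of the A type, as were most of the receptors measured. Epha1, a receptor tyrosine kinase of epithelia, read 5.78 in carcinoma GFP, 5.94 in papilloma GFP, and 8.48, 8.70 and 8.81 in carcinomas 1 to 3 and 8.64 and 7.43 in papillomas 1 and 2. It was lower in the tagged arrays, with a difference of -2.52 log2 units (SE 0.36, limma adjusted p = 0.00405, and 0.0919 without carcinoma GFP), and by -1.42 with the mean of its 3 probe sets, which was called (adjusted p = 0.0122). Epha2, a receptor that keratinocytes carry at their junctions, had 7.29 and 6.93 in carcinoma GFP and papilloma GFP, 9.80, 9.51 and 9.87 in carcinomas 1 to 3 and 9.73 and 7.83 in papillomas 1 and 2. The tagged arrays lay below all others, with a difference of -2.16 (SE 0.48, limma adjusted p = 0.0222), and the call ended without either tagged array (adjusted p = 0.262 and 0.106) or without carcinoma 1 (0.0503). Epha4 was lower, at -1.07 (SE 0.22, limma adjusted p = 0.0177), which also ended without either tagged array and with the mean of its 5 probe sets (-0.72, adjusted p = 0.0508). Among the B receptors, Ephb6, which lacks kinase activity, differed by -0.97 (SE 0.33, limma adjusted p = 0.0933) and Ephb3 by -0.54, with no overlap between tagged and untagged arrays in both. Ephb4, the receptor of Efnb2 that marks veins, differed by -0.19. Epha3 and Ephb1 lay higher in the tagged arrays by 1.81 (SE 1.07) and 1.05 (SE 0.72), short of the threshold. On the probe sets used, Epha5, Epha6, Epha7, Epha8 and Epha10 differed by -0.25 to -0.03, from levels of 3.57 to 7.15. Further probe sets of Epha7 gave -0.84, -0.78 and 0.04. The one with -0.78 read 9.41 in carcinoma 1 and 3.23 to 6.15 in the other arrays.

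Of the ephrins, 1 of 8 was higher and 3 were lower in the tagged arrays. Efna4, an A-type ephrin, read 5.54 in carcinoma GFP, 5.07 in papilloma GFP, and 8.17, 7.93 and 7.79 in carcinomas 1 to 3 and 8.18 and 7.74 in papillomas 1 and 2. Of the 58 genes it had the lowest tag difference, -2.64 log2 units (SE 0.22, limma adjusted p = 0.000479). Efnb1 and Efna5 were lower, at -1.48 (SE 0.28) and -0.88 (SE 0.20), with limma adjusted p of 0.0127 and 0.0239, and both calls ended without either tagged array, that of Efna5 also without carcinoma 1 or 2. Efnb2, the ligand that marks arterial endothelium, had 10.86 and 10.84 in carcinoma GFP and papilloma GFP and a wide range in the others, with 9.64, 8.68 and 7.30 in carcinomas 1 to 3 and 8.03 and 8.90 in papillomas 1 and 2. It was higher by 2.34 (SE 0.59, limma adjusted p = 0.0351), and a second probe set gave 2.40, but its dimmer probe sets gave 0.15 and -0.39 and the mean of all 4 was not called (1.13, adjusted p = 0.132). That call also ended without either tagged array, papilloma 1 or carcinoma 2 (adjusted p = 0.257, 0.203, 0.0703 and 0.0702). Efna1, Efna2, Efna3 and Efnb3 differed by 0.50, 0.02, -0.84 and 0.34 and were not called, and a second probe set of Efna1 gave -1.84, opposite to its brightest.

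Netrins and their receptors held 2 of 8 genes that were higher in the tagged arrays. Unc5b, the netrin receptor of vessels, read 10.82 in carcinoma GFP, 10.29 in papilloma GFP, and 7.23, 7.28 and 8.40 in carcinomas 1 to 3 and 7.42 and 7.41 in papillomas 1 and 2. It was higher by 3.04 log2 units (SE 0.34, limma adjusted p = 0.00161), and its second probe set gave 1.12. Its ligand Ntn1 had 8.14 and 6.96 in carcinoma GFP and papilloma GFP and 4.95 to 5.68 in the others, a difference of 2.30 (SE 0.35, limma adjusted p = 0.00519) that was not called without carcinoma GFP (1.62, adjusted p = 0.0889); its second, dim probe set gave -0.31, and the mean of both was called at 0.996 (adjusted p = 0.0402). Ntn4, a netrin of basement membranes, varied among untagged arrays from 4.63 in carcinoma 3 to 8.48 in carcinoma 2, and its 1.99 (SE 1.01, limma adjusted p = 0.235) was not called. Unc5a, Unc5c, Unc5d, Ntn3 and Ntn5 differed by -0.37 to 0.14.

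**Figure D4:**
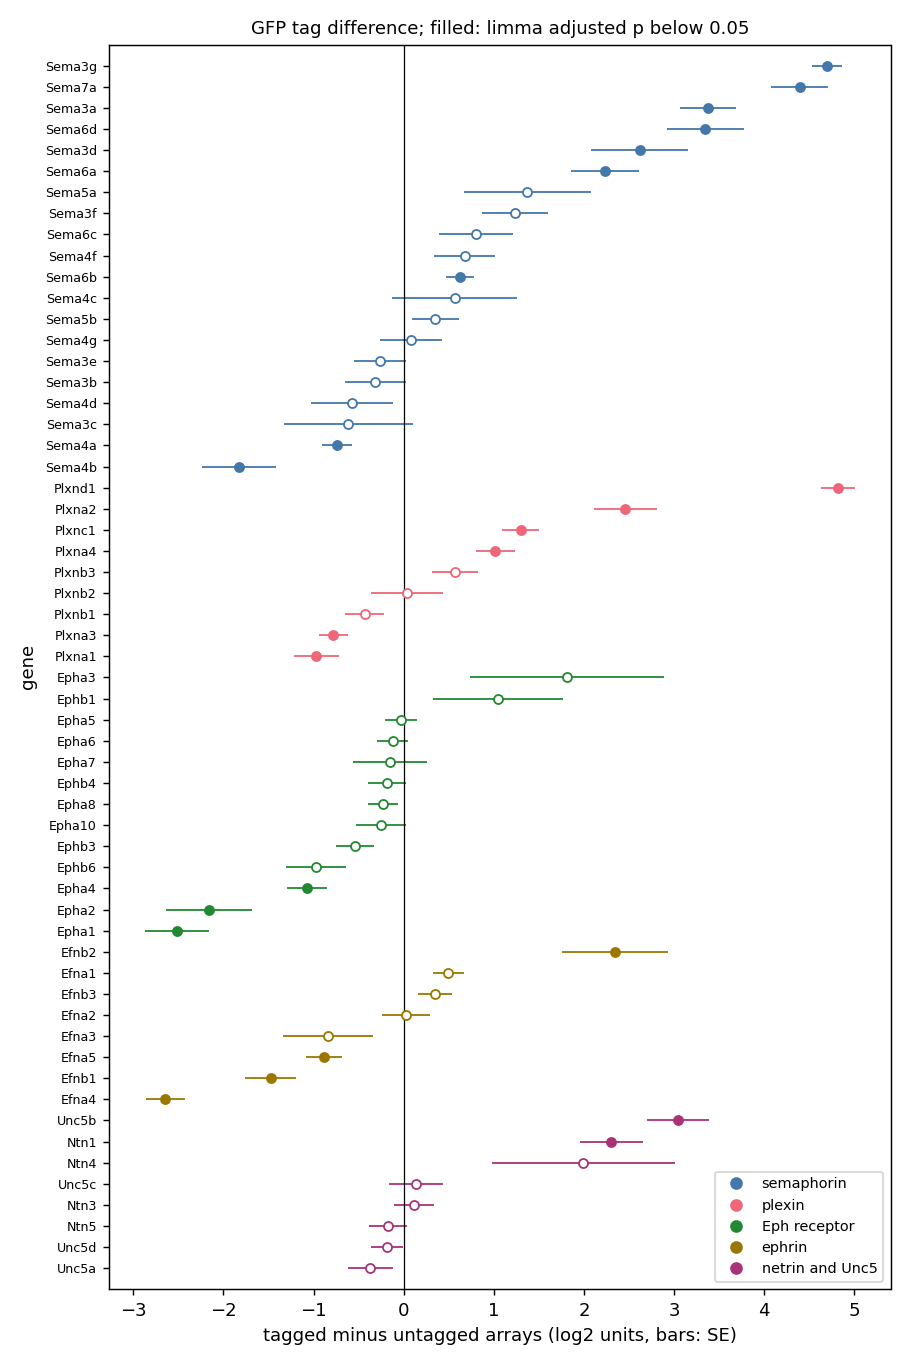
Tagged minus untagged difference (horizontal axis, log2 units, with SE bars) of each of the 58 genes (vertical axis), coloured by family and filled where the limma adjusted p is below 0.05. Filled points reach 4.82 for Plxnd1 on the right and -2.64 for Efna4 on the left.

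The 7 calls that held when any 1 array was left out were Sema3a, Sema3g, Sema6d, Sema7a, Plxnd1 and Unc5b among the higher genes and Efna4 among the lower ones. Without carcinoma GFP 8 genes were called higher and 1 lower, and without papilloma GFP 9 and 2; these fits compare a single tagged array, which is assumed to vary like the others. Without carcinoma 1 the lower calls fell to 5. All 10 lowered genes had a mean above that of the median gene (6.64), and 7 of the 14 raised genes did. The same lean lay over all genes. A fit of the genes above that level alone called 1324 lower and 1228 higher, against 1442 and 2159 in the fit of all genes. Of 36 further probe sets of the called genes, 32 moved in the same direction as the one used, and 0 of the 4 others moved the opposite way by more than 1 unit. Over all 58 genes, 53 of 69 further probe sets had the sign of the one used and 16 the opposite one, 3 of these by more than 1 unit, in Efna1 and Sema3b.

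Tumour type was the comparison the series is about, since its title concerns the malignant state. The largest differences lay among semaphorins and A-type Eph receptors and fell short of the threshold, with a limma adjusted p of 1 for all of them. Sema4b, the class 4 semaphorin described above, had a carcinoma mean of 9.30 ± 1.20 (SD, n = 4) against a papilloma mean of 8.25 ± 0.96 (SD, n = 3), and the fit with the tag gave 0.90 (SE 0.38). The 3 untagged carcinomas all exceeded the 2 untagged papillomas, by 1.17 on average, whereas the tagged arrays differed by 0.24. Without papilloma 2 the difference was 0.45. Epha2 differed by 0.77 (SE 0.44), by 0.94 among untagged arrays and by 0.36 between the tagged ones, and without papilloma 2 by 0.14. In papilloma 2 the keratinocyte markers averaged 11.46, the lowest of the untagged arrays, against 11.96 to 12.17 in the other 4. The part of these markers in the differences of Sema4b and Epha2 was not tested.

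Sema3d and Sema3a differed by 0.62 (SE 0.49) and 0.52 (SE 0.28), mainly between the tagged arrays. Between carcinoma GFP and papilloma GFP they differed by 2.31 and 1.49, but among the untagged arrays by -0.08 and 0.11. Epha3, a receptor of mesenchymal cells, had the same form, with 7.81 in carcinoma GFP and 4.41 in papilloma GFP, a fitted difference of 0.66 (SE 0.98) and -0.49 among the untagged arrays. Fibroblast markers averaged 10.48 in carcinoma GFP and 9.37 in papilloma GFP, and their part in these values was not tested.

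Among the ephrins, 4 of 8 lay lower in carcinoma, and 0 passed the threshold. Efna1, a ligand of Epha2 that is induced by inflammatory signals, had 8.88, 9.24, 8.93 and 9.49 in carcinomas 1 to 3 and GFP and 9.36, 9.47 and 9.93 in papillomas 1, 2 and GFP. Carcinoma minus papilloma was -0.40 among the untagged and -0.44 between the tagged arrays, and each untagged carcinoma lay below both untagged papillomas. The fitted difference was -0.41 (SE 0.16, limma adjusted p = 1), and for this gene alone an exact permutation test (two-sided, tag ignored) gave p = 0.171, where 0.0571 is the smallest that 4 against 3 arrays allow. Its second probe set gave -0.18. Efna2, a dim A-type ephrin, differed by -0.42 (SE 0.24), with -0.65 among untagged arrays and 0.13 between the tagged ones.

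Of the plexins, netrins and Unc5 receptors, 0 passed the threshold between the tumour types, and the differences described here moved with single arrays. Plxnb2, a receptor of class 4 semaphorins found on many epithelia, lay at 10.21, 10.26, 10.10 and 10.04 in carcinomas 1 to 3 and GFP and at 10.42, 8.82 and 9.87 in papillomas 1, 2 and GFP. Papilloma 2 stood alone below the others, and the difference of 0.46 (SE 0.37) became -0.06 without it. Plxna1 differed by 0.37 (SE 0.23) and by 0.07 without papilloma 2. Ntn4 differed by -0.60 (SE 0.93), and by 0.21 without carcinoma 3, where it was 4.63. Unc5b differed by 0.31 (SE 0.31), and by 0.07 without carcinoma 3, where it was 8.40 against 7.23 to 7.42 in the other untagged arrays.

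**Figure D5:**
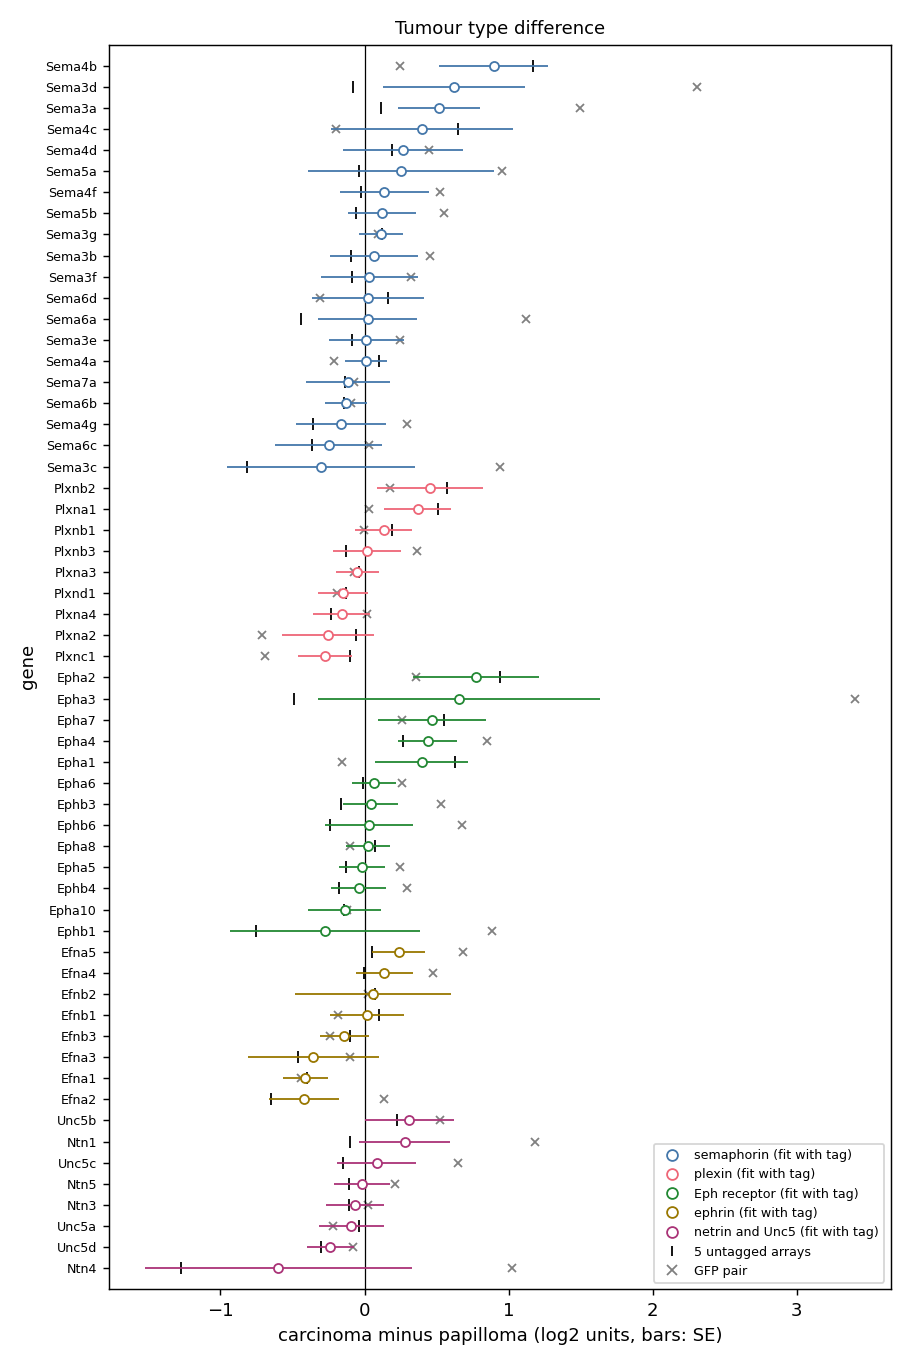
Carcinoma minus papilloma difference (horizontal axis, log2 units) of each of the 58 genes (vertical axis): open circles with SE bars are the fit with the tag, black ticks the 5 untagged arrays and grey crosses the tagged pair. The circles lie between -0.60 for Ntn4 and 0.90 for Sema4b, and the ticks and crosses often lie on opposite sides of 0.

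Signs differed between the untagged arrays and the tagged pair in 34 of the 58 genes. Since 52 of the 58 fitted tumour differences were under 0.5 log2 units, many of these signs are uncertain. The share over all genes was not counted, so the 34 is not read as a result. The interaction of tumour type and tag tests whether the tumour difference varies with the tag. This test called 0 of 58 guidance genes and 0% of all genes (limma). At an unadjusted p under 0.05 it found 3 guidance genes, all class 3 or class 6 semaphorins, and 2.14% of all genes. In Sema3d, Sema3a and Sema6a the tagged carcinoma array exceeded the untagged carcinomas by 3.74, 4.02 and 2.97, and the tagged papilloma array exceeded the untagged papillomas by 1.36, 2.64 and 1.41. The interaction was 2.39 (SE 0.62), 1.38 (SE 0.38) and 1.56 (SE 0.51), each with a limma adjusted p of 0.9998.

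Other genes of guidance signalling, 47 measured of a list of 50 co-receptors, ligands and intracellular partners, were tested in the same fit. In the tagged arrays 16 were higher and 2 lower (limma), where 11.9% and 7.93% of all genes were, and 29 were not called. The median tag difference was 0.44, and 0 were called between the tumour types, with a median of 0.12. The neuropilin Nrp1, the co-receptor of class 3 semaphorins, averaged 12.24 in the tagged and 6.70 in the untagged arrays, a difference of 5.52 (SE 0.88, limma adjusted p = 0.00652). Fyn, a kinase downstream of semaphorin and Eph signals, was higher by 5.45 (SE 0.33), Mical1, an oxidase of actin that acts behind plexins, by 3.45 (SE 0.37), and Dpysl3, of the collapsin response mediator family, by 2.92 (SE 0.60). The lowered pair were Rgma and Rgmb, repulsive ligands of neogenin, at -1.39 and -0.91, named after their values were seen. Dpysl3 and the GTPase Rnd1 had the largest tumour differences, 1.05 (SE 0.55) and -0.85 (SE 0.32), then Itgb1, a partner of Sema7a, at 0.75 and Met, a partner of B plexins, at 0.71, none of them past the threshold.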

How the data were processed

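Per the labels' protocols, RNA of sorted cells was amplified, labelled with biotin and hybridised to Affymetrix mouse 430 PM strip arrays. The deposited log2 values were made by the authors with RMA and affy, per the submitters' processing notes, which give no version. The log2 scale was read from the values. Of 45101 probe sets, 64 are controls, 34945 carry 1 gene symbol in the platform annotation of the standard 430 design, 932 carry several and 9160 none. Symbols were updated through RefSeq gene identifiers.

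Tumour type and GFP tag entered 1 additive fit over all 18193 genes with limma 3.58.1 in R 4.3.3 (lmFit, eBayes), with Benjamini-Hochberg adjustment and a threshold of 0.05; the interaction was fitted separately. The tag was included because earlier results showed it as the largest difference between arrays. Single genes were tested by exact two-sided permutation over 35 splits. Dim genes were kept; 32 of the 58 lie above the median gene. Promoters were scanned on both strands. The fits were checked on data drawn with known changes in 200 genes. At a change of 1 log2 unit 0 of the 200 were called for tumour type and 0 for the tag. At 2 log2 units 73% and 65% were called. For the tag, the real fit called 2159 genes higher and 1442 lower, which makes the adjusted threshold easier to pass than in the drawn data. It called 5 guidance genes with differences below 1 log2 unit, so the drawn rates do not describe the tag fit. Figures were drawn with matplotlib 3.10.9.

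The genes, lists and rules were chosen with earlier results of these data known. Named with values were the 3 semaphorins and 2 genes of each other family with the largest tumour difference and with the largest tag difference, and 4 of the further list for each; other values are given by family. Alternatives were array weights, a filter on dim genes, the mean of a gene's probe sets, another prior, leaving out each array, and fits without the tag, without tumour type, without the tagged arrays and with the replicate block. Replicate labels 1, 2 and GFP occur in both groups, and their deviations from the group means correlated at 0.476, 0.194 and 0.861 across genes, but arrays of different numbers reached 0.682. Those means include the tagged arrays. Without them, labels 1 and 2 gave 0.101 and -0.303, and arrays of different numbers reached 0.331. The deviations of papillomas 1 and 2 from their own mean are mirror images, so these values cannot tell whether equal numbers are paired. The 0.861 of label GFP includes the tag difference.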

Additional observations from a re-analysis of the deposited data

Results flagged for a closer look

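Of 38 groups tested for 19 named genes, 14 held an array far from the others of its group, as the gap to the nearest array divided by the range. Chance marks about 1 in 20 groups, but that rate is no measure for these, because the genes were named for large tag or tumour differences and the carcinoma group holds a tagged array. Carcinoma GFP stood apart from the other carcinomas in Sema3g (0.989), Sema3a (0.975), Plxna1 (0.955), Plxnd1 (0.901), Epha1 (0.892), Epha2 (0.862), Ntn1 (0.862) and Efna4 (0.854). Among the untagged arrays papilloma 2 stood apart as the lowest in Plxna1 (0.867), Epha2 (0.825), Plxnb2 (0.802) and Epha1 (0.762). Carcinoma 3 was the highest in Unc5b (0.838), and papilloma 1 the lowest in Sema3g (0.773), where the untagged arrays span 4.41 to 4.76.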

How the results depend on the processing

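Each of the 13 alternatives called 0 guidance genes for tumour type. With the mean of all probe sets 1 of all genes was called lower in carcinoma. With the replicate block Sema4b differed by 0.69 and Ntn4 by 0.21, opposite to the fit without it; the block changed no call, and it could not be used for the tag, which is itself a replicate label. Array weights also turned Ntn4, to 0.44, and without carcinoma 3 it was 0.21, its range over single arrays left out being -1.27 to 0.21. Without both GFP arrays Sema3d was -0.081 and Epha3 -0.49; leaving out 1 array gave -0.081 to 0.98 for Sema3d, -0.49 to 1.79 for Epha3 and -0.065 to 0.89 for Plxnb2. A tumour fit without either tagged array equals that without both, because the tag term then takes up the lone tagged array.

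For the tag, array weights called 3520 of all genes higher and 3299 lower, in place of 2159 and 1442. Among the 9096 genes above the median level 1228 were called higher, and of the 32 guidance genes among them 7. Fewer genes were tested there, and single calls changed as well, since Sema6b lost its call. Leaving out 1 array gave 637 to 2207 higher and 224 to 1748 lower calls over all genes, and 8 to 18 and 1 to 10 over the guidance genes. Of the 24 guidance calls, 17 held under every other alternative in which the gene was tested, and 17 when any untagged array was left out. No tag difference of a called gene changed sign.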
